A study of Mus musculus with 16 samples.

Results

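The step of reperfusion from 6 h to 24 h was examined in the m6A peak lists of 4 MeRIP-seq libraries of mouse peri-infarct cortex, 2 taken after 24 h of reperfusion (Re-24 h) and 2 after 6 h (Re-6 h), out of 8 immunoprecipitated (IP) libraries and 16 libraries in all. The 86722 peaks of these lists were joined wherever they had an exonic base of one strand in common, which gave 41111 regions (the 8 lists together give 52783). The members are the 1032 regions found in both Re-24 h lists and neither Re-6 h list, called 24 h regions below, and the 1737 regions found in both Re-6 h lists and neither Re-24 h list, called 6 h regions. All groups were adult male C57BL/6J mice of 6 to 8 weeks. A filament closed the middle cerebral artery for 2 h, and the vessel was then reopened for 6 h or 24 h before cerebral cortical tissue around the infarct was taken; the Sham mice had surgery without occlusion and the Re-0 h mice no reperfusion. The labels do not say whether replicates 1 and 2 of a group came from separate animals, so the spread between them may be technical. The input libraries were not analysed here. Read counts are not part of the lists and sequencing depth is therefore unknown. A gene is seen only through its listed peaks, and fewer cells of a type, less RNA per cell and less m6A per RNA cannot be told apart.

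N6-methyladenosine (m6A) is the most common internal modification of messenger RNA. A nuclear complex around Mettl3 and Mettl14 writes it on adenosines in a short sequence context, Fto and Alkbh5 can remove it, and reader proteins such as the Ythdf and Ythdc families bind it and act on the splicing, decay and translation of the RNA. Sites are densest near stop codons, in the 3' UTR and in long internal exons. In the brain, where many synaptic and developmental transcripts carry m6A, the mark has been studied in synaptic function, injury and axon growth.

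The adenosine that is methylated lies in the context RRACH, that is A or G, again A or G, then AC, then A, C or T, of which GGACT is the best-known form. Sequences of regions the results turn on are given 5′ to 3′ on the sense strand of GRCm39, with RRACH matches in capitals. The first 5 are whole regions inside 1 coding exon. Zhx1 is the highest-ranking 24 h region that lies in 1 coding exon, Tlr13 is a gene with peaks in the Re-24 h lists alone, Irs4 and Prlr are genes with several 6 h regions, and Ythdf2 is an m6A reader with a 6 h region in its own transcript. They lie at chr15:57915645-57915719 (minus strand), chrX:105200521-105200820 (plus strand), chrX:140505841-140506065 (minus strand), chr15:10328375-10328449 (plus strand) and chr4:131931532-131931756 (minus strand).
Zhx1: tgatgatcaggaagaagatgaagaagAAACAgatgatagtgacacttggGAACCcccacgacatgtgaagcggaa
Tlr13: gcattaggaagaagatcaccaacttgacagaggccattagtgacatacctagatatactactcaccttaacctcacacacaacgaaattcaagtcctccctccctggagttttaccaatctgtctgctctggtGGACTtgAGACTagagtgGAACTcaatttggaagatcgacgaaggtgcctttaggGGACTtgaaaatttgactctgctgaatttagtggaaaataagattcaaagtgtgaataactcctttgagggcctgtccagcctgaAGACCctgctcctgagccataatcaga
Irs4: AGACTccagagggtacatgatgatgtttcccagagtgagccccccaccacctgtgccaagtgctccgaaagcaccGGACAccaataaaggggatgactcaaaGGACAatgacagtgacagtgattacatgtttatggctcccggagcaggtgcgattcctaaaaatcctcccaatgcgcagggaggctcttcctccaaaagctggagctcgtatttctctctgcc
Prlr: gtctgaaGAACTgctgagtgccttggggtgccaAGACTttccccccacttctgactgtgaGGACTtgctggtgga
Ythdf2: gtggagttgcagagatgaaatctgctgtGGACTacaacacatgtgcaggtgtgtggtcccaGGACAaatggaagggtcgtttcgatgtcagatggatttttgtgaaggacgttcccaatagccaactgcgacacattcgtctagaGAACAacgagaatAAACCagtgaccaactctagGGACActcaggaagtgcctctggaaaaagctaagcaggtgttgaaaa
Of the 3' UTR regions, a window of 25 bases around 1 match near the middle is given, with that match alone in capitals. The windows lie at chr1:64636565-64636589 (Creb1, plus strand), chr7:61999430-61999454 (Ndn, plus strand), chrX:56545209-56545233 (Gpr101, minus strand) and chr17:85931606-85931630 (Six3, plus strand), the first pair from 24 h regions and the second pair from 6 h regions.
Creb1: ggtggagaatGGACTggcttggcca
Ndn: tctttgtatgGGACTgatgatctgt
Gpr101: acggacataaGGACTatttggcctt
Six3: cgacgccaacAGACAgtcacaaacg
The whole Ndn region held 4 GGACT matches and the whole Gpr101 region 5, whereas the Six3 region held none and its window shows another RRACH form. A match is a run of letters and not a mapped modification.

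The 24 h regions made up 2.51% of the 41111 regions and the 6 h regions 4.23%. To see how many such regions 2 lists against 2 give without a difference in time, the same count was made with 1 list of each time on each side. With replicates 1 on one side and replicates 2 on the other, the sides held 790 (1.92%) and 1373 (3.34%) regions. With Re-24 h replicate 1 beside Re-6 h replicate 2, and the remaining lists on the other side, they held 818 (1.99%) and 997 (2.43%). Division by time thus gave 2769 regions, against 2163 and 1815 for the mixed divisions, a ratio of 1.39 to their mean. It was the largest of the 3 divisions (p = 0.333, one-sided exact permutation test, the smallest p that 3 divisions allow), so the design cannot place the difference beyond the replicate spread. Most regions did not divide by either scheme, since 6741 were in all 4 lists and 4511 to 6586 in 1 list alone. Sharing was measured as the number of shared regions divided by the number in either list. The Re-6 h replicates, at 0.377, shared little more than the mixed pairs, at 0.342 to 0.356. The Re-24 h replicates, at 0.352, lay within the range of the mixed pairs. Without Re-24 h replicate 2, with 1 list set against 2, division by time gave 0.973 times the mean of the other divisions. Leaving out another list gave 1.11 to 1.17. The side with 1 list then takes in all its unreplicated regions, so these ratios are another measure than 1.39. Leaving out Re-24 h replicate 2 leaves that side with the shortest of the 4 lists, of 19072 peaks. With the 19072 highest-scoring peaks of each list, the 24 h regions numbered 1071 and the 6 h regions 1413, at a ratio of 1.46. The part of list length in the ratios with 1 list left out was not tested.

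**Figure D1:**
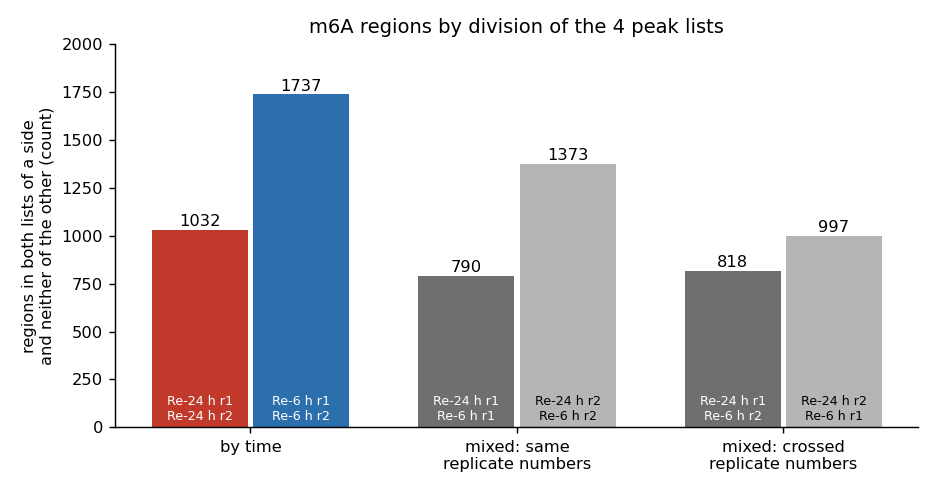
Number of regions (vertical axis, count) found in both lists of one side and neither list of the other, for the division by time (red, 24 h regions; blue, 6 h regions) and the 2 mixed divisions (grey), with the lists of each side named in the bar. The 6 h bar of 1737 is the tallest, and the 24 h bar of 1032 is lower than one mixed bar of 1373.

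The 10 highest-ranking 24 h regions lay in genes of varied function, and all 10 had already been listed without reperfusion. Peaks were ranked by score percentile, the share of peaks in the same list with a lower score, and a region by the lower percentile of its pair of lists. The first region lay in the 3' UTR of Creb1, the cyclic AMP-responsive transcription factor, with its centre 118 nt after the first base of the stop codon. It stood at the 96.0 and 97.5 percentiles of the Re-24 h lists, at 96.27 and 96.55 in Sham and at 95.5 in Re-0 h replicate 1. Re-0 h replicate 2 and both Re-6 h lists held no peak there, although another Creb1 peak 2900 nt away was listed at 6 h. Ndn, which encodes the imprinted growth suppressor necdin in a single exon, had its 525-nt region at 97.4 and 94.7 at 24 h and at 84.5 to 95.8 in the Sham and Re-0 h lists. No Ndn peak at all was listed at 6 h. Vezt, which encodes the adherens junction protein vezatin, stood at 96.0 and 93.6 at 24 h and was in all 4 Sham and Re-0 h lists at 92.9 to 97.3. The region of Arpp19, a regulator of protein phosphatase 2A, had the same pattern with 86.4 and 91.1 at 24 h and 87.6 to 95.3 in the 4 Sham and Re-0 h lists. Rapgef4 (a cyclic AMP-activated exchange factor), Mroh5, Dpp10 (a partner of Kv4 potassium channels), Plxna2 (a semaphorin receptor), Enah (an actin regulator) and Zhx1 (a zinc finger and homeobox protein) made up the first 10, at lower percentiles of 86.2 to 90.4. All 10 regions had a peak in at least 1 Re-0 h list, against 54.4% of all 24 h regions. For Zhx1 and Plxna2 the nearest 6 h peak was only 50 and 100 nt of exon away, at the 96.4 and 97.7 percentiles. At or above the 86.15 of the tenth gene stood 7 to 17 protein-coding genes per mixed side and 63 of the 6 h side.

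The highest-ranking 6 h regions stood nearer to the top of their lists, with lower percentiles of 96.1 to 99.9 for the first 10 genes, against 86.2 to 96.0 for the 24 h regions. Prr14l came first with 75 nt across an intron at the 99.9 percentile or above in both Re-6 h and both Re-0 h lists, and no peak in Sham. Gpr101, an orphan G protein-coupled receptor, followed with a 1150-nt 3' UTR region at 99.23 and 99.25 in the Re-6 h lists and no peak in any of the other 6 lists. Pde1a, a calmodulin-dependent phosphodiesterase, stood at 99.3 and 99.1 at 6 h and at 91.5 to 99.6 in all 4 Sham and Re-0 h lists, with no Pde1a peak at 24 h. Lysmd3 likewise was in all 4 earlier lists at 83.3 to 90.9 and at 97.3 and 98.8 at 6 h, and no Lysmd3 peak was listed at 24 h. Six3, a homeobox transcription factor of the ventral forebrain, stood at 97.0 and 97.1 at 6 h and was absent from the other 6 lists. Isl1, a LIM homeobox factor of striatal and hypothalamic neurons, stood at 94.8 and 96.8 and was absent elsewhere too. The remaining leading genes were 6430550D23Rik, Eea1 (an early endosome tether), Ppig (a nuclear cyclophilin), Hecw1 (a ubiquitin ligase) and Pals1 (a cell polarity scaffold). No Hecw1 region was in the 4 Sham and Re-0 h lists at this position, and the others were in at least 1 of them. The nearest 24 h peak to the Pals1 region was 75 nt of exon away, at 81.6. Over all members the median lower percentile was 35.7 for 6 h regions, 26.7 for 24 h regions and 26.2 to 33.6 for the mixed sides. Above 90 were 51 of the 6 h regions (2.94%) and 5 of the 24 h regions (0.485%), against 0.611% to 1.00% on the mixed sides. At or above the 96.1 of the tenth 6 h gene stood 1 to 4 protein-coding genes per mixed side and none of the 24 h side.

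**Figure D2:**
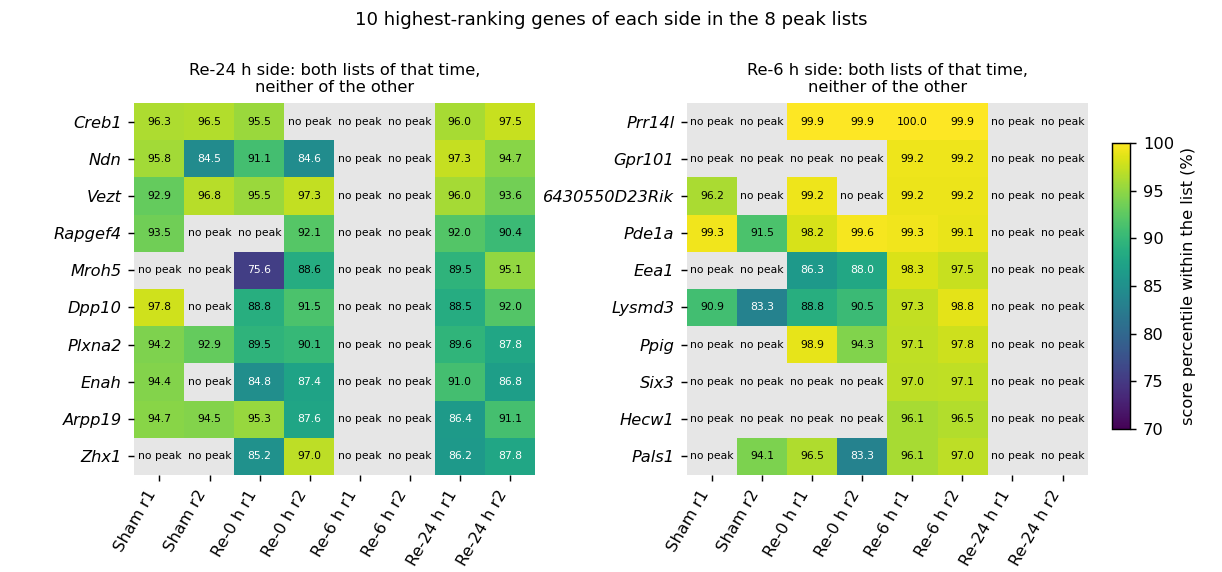
Score percentile within each list (colour and printed value, %) of the leading region of the 10 highest-ranking protein-coding genes of the 24 h regions (left) and the 6 h regions (right), in the 8 lists (columns); grey, no peak. Each 24 h gene is filled in at least 1 Re-0 h list, and Mroh5 and Zhx1 in no Sham list, whereas Gpr101, Six3 and Hecw1 on the right are filled in the Re-6 h lists alone.

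The 6 h regions included a group of transcripts known for hypothalamic neurons, although the labels give cerebral cortical tissue. A list of 42 genes known for the hypothalamus was drawn up after the names of the leading genes had been seen, so its counts are a description without a test. In the Re-6 h lists 17 and 20 of the 42 had a peak, whereas Sham had 0 and 3, Re-0 h had 1 and 2, and Re-24 h had 2 and 5. Of the 42 genes 13 had peaks in both Re-6 h lists and in none of the other 6 lists, and no gene showed the reverse for 24 h. Over all 12437 genes with a peak, 144 had this pattern for Re-6 h, 89 for Re-24 h and 47 to 91 for the mixed sides. The 13 hypothalamic genes included Irs4 (an insulin receptor substrate) with 4 and 6 peaks and Magel2 (an imprinted neighbour of Ndn) with 3 and 7. Among them too were Otp and Sim1 (transcription factors of neuroendocrine neurons) with 3 and 2 and with 1 and 1, and Ghsr (the ghrelin receptor) with 1 and 5. Lepr, the leptin receptor, had 3 and 1 peaks, and Tbx3, a transcription factor of arcuate neurons, 3 and 4. Prlr, the prolactin receptor, had 4 and 7 at 6 h and 1 in Re-24 h replicate 2. The neuropeptide genes Agrp, Avp, Oxt, Hcrt, Trh and Gal had no peak in any list. Others of the list went against the pattern. Pomc had its only peak in Re-24 h replicate 2, and Pmch had 1 each in Sham replicate 2 and Re-24 h replicate 2. Crh had 1 each in replicate 2 of Sham, Re-6 h and Re-24 h. Mc4r, a melanocortin receptor gene, had a peak in every list but Sham replicate 1. Gabrq and Gabre, which encode the theta and epsilon subunits of the GABA-A receptor and are not on that list, showed the same pattern with 6 and 4 and with 2 and 2 peaks at 6 h and 0 elsewhere.

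Genes of the cerebral cortex were present throughout, with Tbr1, Fezf2 and Cux2 among those listed everywhere, and each list held a peak for 10 of 11. The gene without a peak was Emx1 in Sham replicate 2 and Slc17a7 in the other lists. Of 20 genes known for the striatum 10 to 14 per list had a peak, and of 10 for the thalamus 4 to 7, with 6 and 7 in the Re-6 h lists. Tcf7l2, a thalamic transcription factor, had 4 and 1 peaks at 6 h, 1 and 2 in Re-0 h and none in Sham or Re-24 h. Leaving out all genes of the 3 subcortical lists, an alternative added after the data were seen, gave 1030 regions at 24 h and 1717 at 6 h, with a ratio of 1.385 to the mixed divisions. Those gene lists hold only 42, 20 and 10 genes, so their removal could change the counts little. It cannot show how far tissue content shapes the remaining regions. The Re-6 h tissue may have differed in content from the other groups, which the peak lists cannot tell apart from a change in m6A. The part of such a difference in the 6 h counts of the gene groups described later, such as ion channels, inhibitory synapses and m6A machinery, was not tested. Of the cell type markers, microglial genes had peaks for 3 to 5 of 6 in each list, astrocyte genes for 3 or 4 of 6, oligodendrocyte genes for 3 to 5 of 7, neuronal genes for 5 to 8 of 12 and endothelial genes for 3 to 5 of 5. All 9 markers of infiltrating leukocytes, Ptprc, S100a8 and Ly6g among them, were without a peak in every list.

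**Figure D3:**
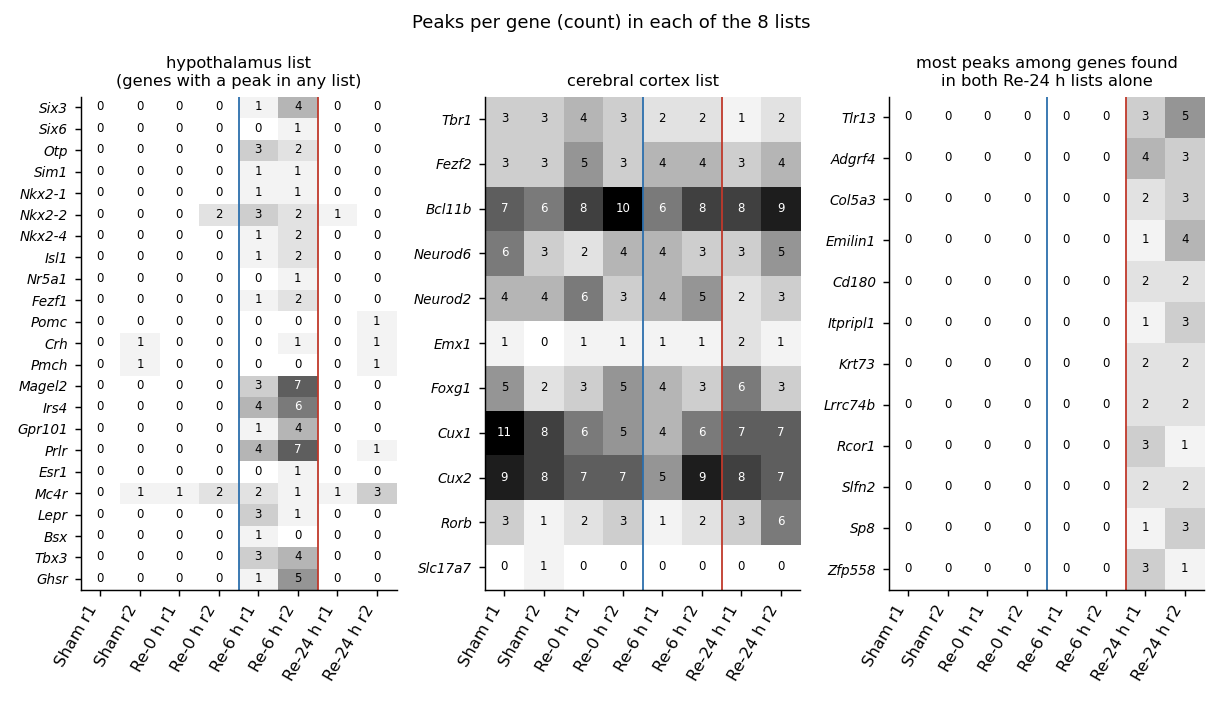
Number of peaks per gene (printed count and grey level) in the 8 lists (columns) for the hypothalamic genes with any peak (left), 11 cortical genes (middle) and the 12 genes with most peaks among those found in both Re-24 h lists and no other list (right). Vertical lines mark the Re-6 h columns (between blue and red) and the Re-24 h columns (right of red). Hypothalamic genes such as Magel2 and Irs4 are filled in the Re-6 h columns, while the cortical genes are filled across all columns.

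At the level of whole genes, 322 genes had a peak in both Re-24 h lists and in neither Re-6 h list, and 541 had the reverse. The mixed sides gave 215 to 394 genes. Regions without any opposing peak in their gene made up 20.45% of the 24 h regions and 20.15% of the 6 h regions, and 14.2% to 15.8% on the mixed sides. Of the 322 genes, 89 (27.6%) had no peak in Sham or Re-0 h either, against 26.6% of the 541 genes and 20.2% to 24.4% on the mixed sides. The count of 89 lay within the 47 to 91 genes of the mixed sides. Some of these 89 are named here after their values were seen, without a test and not as a group. Genes of other kinds were among them too, such as Adgrf4 with 4 and 3 peaks and Krt73 with 2 and 2. The immune genes Siglech and Tnfrsf8, with 1 and 1 peaks each, were found in both Re-6 h lists alone. The innate immune list described with the other gene lists held 24 h regions in 2 of 24 genes (8.33%), against 7.65% over all genes. Tlr13, an endosomal receptor for bacterial ribosomal RNA, had 3 and 5 peaks in the Re-24 h lists and 3 of the 24 h regions, at lower percentiles of 8.98 to 44.0. Cd180, a Toll-like receptor homologue, had 2 and 2 peaks, Slfn2, a Schlafen gene of immune cells, 2 and 2, Msr1, a macrophage scavenger receptor, 1 and 2, and Ptx3, a long pentraxin, 1 and 2. The matrix genes Col5a3, Emilin1 and Loxl1 had 2 and 3, 1 and 4, and 2 and 1. The highest percentile of these genes ranged from 1.71 for Col5a3 in Re-24 h replicate 1 to 79.0 for Msr1 in replicate 2.

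More genes had several 6 h regions than several 24 h regions. Of the protein-coding genes 30 held at least 3 of the 6 h regions and 8 at least 3 of the 24 h regions, against 1 to 9 on the mixed sides. Zfhx3 and Zim1 held 5 of the 6 h regions each. Zfhx3, a homeobox factor of the suprachiasmatic nucleus and other neurons, had 18 and 23 peaks at 6 h, 6 and 10 at 24 h, 3 and 5 in Sham and 5 and 10 in Re-0 h. Zim1, an imprinted zinc finger gene, had 9 and 7 peaks at 6 h and 0 to 2 in each other list. Zfhx4, Fat4 (an atypical cadherin), Dst (a cytolinker), Golgb1 (a Golgi protein), Arid1b (a chromatin remodeller), Ttll5 and Zfp407 held 4 each. Among the genes with 3, Atrx, a chromatin remodeller, had 9 and 6 peaks at 6 h against 3 and 3 at 24 h and 7 or 8 in each earlier list. Sphkap, an anchor of protein kinase A, had 9 and 5 against 1 and 0, with 4 to 6 in the earlier lists. Among the 24 h regions, Arsj, an arylsulfatase, held 4, with 7 and 8 peaks at 24 h, 3 in Re-6 h replicate 2 and 0 in the other 5 lists. Ahnak2 had 5 and 5 peaks at 24 h and 1 in each other list. Macf1, Bcl9l, Gbp7, Igsf10 and Dchs1 also held 3 of the 24 h regions, although Dchs1 had 11 and 10 peaks at 6 h against 5 and 7 at 24 h, and Igsf10 6 and 10 against 8 and 12.

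The position of the regions along the transcript differed between the 2 sides. The centre lay within 200 nt of the stop codon for 22.2% of the 24 h regions (95% exact binomial interval 19.5 to 25.1, n = 864 with a distance) and for 14.8% of the 6 h regions (13.0 to 16.7, n = 1457). The mixed sides gave 17.5% to 20.6%, between the 2, the regions of all 4 lists 24.9% and the regions of 1 list alone 14.2% to 15.8%. The difference lay mainly after the stop codon, with 13.2% against 7.21% from 0 to 200 nt after it, and 9.03% against 7.55% from 1 to 200 nt before it. The last exon held 61.5% of the 24 h and 48.6% of the 6 h centres (mixed sides 49.9% to 55.8%), and internal exons over 400 nt held 13.9% and 20.5% (16.4% to 17.9%). In the 3' UTR were 33.5% of the 24 h regions and 28.9% of the 6 h regions, and in the CDS 48.5% and 54.4%. For the 3' UTR the 6 h value lay among the mixed sides of 28.7% to 33.1% and the 24 h value just above them. These intervals cover counting error only and take regions as independent, although regions of one gene are not. The order in the 3' UTR turned without Re-24 h replicate 2, to 29.0% at 24 h and 32.1% at 6 h. The order near the stop codon did not hold without Re-24 h replicate 2, when it was 16.8% at 24 h and 18.65% at 6 h, and was nearly level without Re-24 h replicate 1, with 16.5% and 16.0%; the 24 h side then rests on 1 list.

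**Figure D4:**
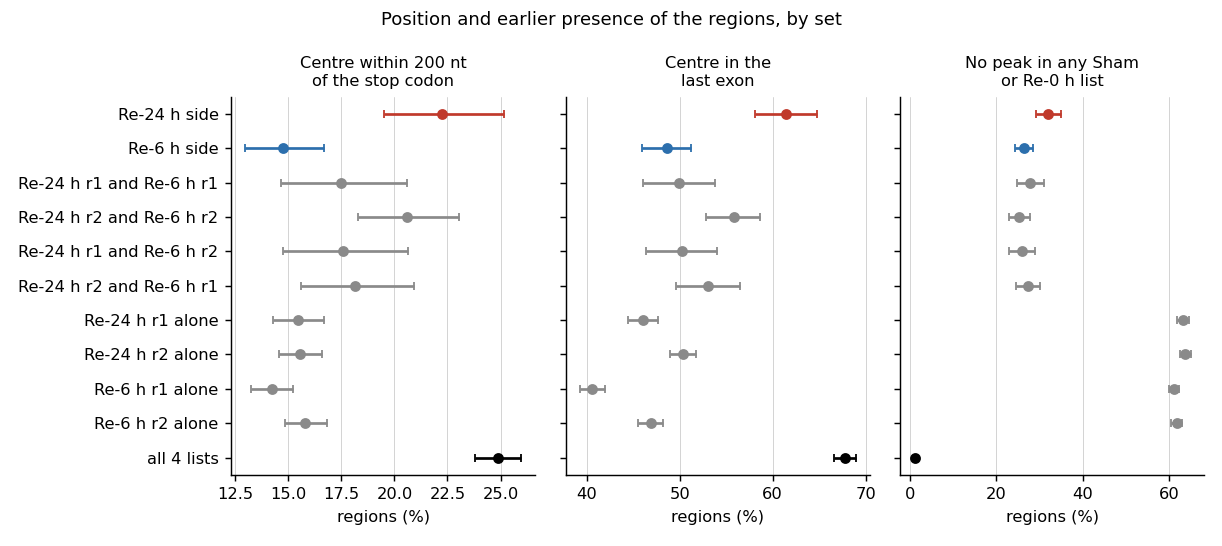
Percent of regions (horizontal axes) with the centre within 200 nt of the stop codon (left), with the centre in the last exon (middle) and without a peak in any Sham or Re-0 h list (right), for the 24 h regions (red), the 6 h regions (blue), the 4 mixed sides and the regions of 1 list alone (grey), and the regions of all 4 lists (black). Points are shares and bars 95% exact binomial intervals; the red point lies to the right of every mixed side in each panel and the blue point lies to the left of them in the first and second.

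The RRACH context was nearly as dense in either set. The 24 h regions held 17.9 RRACH sites per kb (95% exact Poisson interval 17.3 to 18.6) and the 6 h regions 17.2 (16.8 to 17.7), on the sense strand and with overlapping matches counted. The mixed sides held 16.5 to 17.5, the regions of all 4 lists 18.9 and those of 1 list alone 15.3 to 16.3. Among regions within 25 nt of the median length of 150 nt, a match was present in 92.0% of the 24 h regions, 90.05% of the 6 h regions and 91.4% of all regions, and on the mixed sides in 90.9% to 93.5%. GGACT was present in 21.5%, 17.6% and 19.3%, and on the mixed sides in 17.75% to 24.2%. Without Re-24 h replicate 1 or 2 the order of the densities turned, to 16.3 against 17.35 and 16.3 against 17.7.

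The lists of the Sham group and of Re-0 h, which the choice of members did not use, held many of the same regions. Of the 24 h regions 54.4% had a peak in at least 1 Re-0 h list and 47.1% in at least 1 Sham list, and of the 6 h regions 61.8% and 51.6%, where the mixed sides gave 56.7% to 60.6% and 49.5% to 51.7%. The regions with no peak in any of these 4 lists made up 32.1% of the 24 h regions (29.2 to 35.0), 26.4% of the 6 h regions (24.4 to 28.6) and 25.4% to 27.9% of the mixed sides. In all 4 of these lists were 7.07% of the 24 h regions and 8.12% of the 6 h regions. Members were often close to a peak of the other time, with one within 100 nt of exon for 26.4% of the 24 h and 21.1% of the 6 h regions, against 24.3% to 29.3% on the mixed sides. Demanding no such neighbour left the ratio of the divisions at 1.46.

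The 24 h regions lay in 952 genes, 7.65% of the 12437 genes with a peak in the 4 lists, and the 6 h regions in 1531 genes, 12.3%. The 150 genes with both made up 15.8% of the former and 9.80% of the latter. The mixed sides reached 5.97% to 10.1% of the genes. Lists of genes known for the brain's response to ischemia and for synapses, drawn up with earlier results of these data known, are set beside these shares without a test. Genes with more regions have more chances to hold a member, and the mean was 3.305 regions per gene over all genes.

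Immediate early genes, the transcription factors and effectors first induced by activity and injury, were above the background on both sides, with 5 of 29 (17.2%) for the 24 h regions and 7 of 29 (24.1%) for the 6 h regions, against 6.90% to 13.8% on the mixed sides. They had 3.83 regions per gene. Egr1, an activity-induced zinc finger factor, had a 3' UTR region at 72.1 and 71.0 at 24 h and none elsewhere, and 6 and 4 peaks in the gene at 24 h, 0 and 0 at 6 h, and 1 in the 4 earlier lists. Junb, a subunit of AP-1, had a 3' UTR region at 73.6 and 48.2 at 24 h and no peak in any other list. Arc, which regulates AMPA receptors, and Ier5 also had a 24 h region, that of Ier5 with a 6 h peak 25 nt away at 76.9. Nr4a3, Egr2, Klf6 and Fosb led the 6 h regions, and Fosb held a 24 h region as well. Klf6 stood at 57.4 and 62.7 at 6 h and was absent from Sham and Re-0 h at that position, with a 24 h peak 50 nt away at 64.3. Bdnf, the neurotrophin, held a region of each side, with 3 and 2 peaks in the gene at 6 h and 2 and 3 at 24 h. Its coding exon held a 24 h region at 97.6 and 77.4 that was also in all 4 earlier lists at 96.3 to 99.7 and that directly adjoined a 6 h peak at 74.1, and a 5' UTR stretch held a 6 h region at 81.2 and 69.4 that no other list had.

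Transcripts of the m6A machinery held 6 h regions in 6 of 24 genes (25%), 24 h regions in 2 (8.33%) and at most 1 (4.17%) on a mixed side, with 4.125 regions per gene. Over all genes the shares were 12.3% for 6 h regions and 7.65% for 24 h regions. The 6 h genes were Zc3h13, Rbm15 (writer subunits), Mettl16, Mettl4 (further methyltransferases, named beyond the rule to complete the count), Ythdf2 and Ythdc1 (readers). The Zc3h13 region stood at 90.5 and 90.1 and was also in Sham replicate 1 and both Re-0 h lists at 89.5 to 91.6. The Ythdf2 region stood at 75.2 and 88.5 at 6 h and was also in both Sham lists and Re-0 h replicate 2 at 79.9 to 97.6, with a 24 h peak 25 nt away. Ythdf2 had 5 and 6 peaks at 6 h and 6 and 6 at 24 h, and 4 of its 6 regions were in all 4 lists. Ythdf3 had 4 regions, all in the 4 lists, and Ythdf1 6, of which 1 was in all 4 and none divided by time. Mettl3 had no peak in these 4 lists. Rbm15b and Hnrnpa2b1 held the 24 h regions.

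The 3 lists that follow are set beside 12.3% for 6 h regions and 7.65% for 24 h regions over all genes. Voltage-gated ion channel genes held 6 h regions in 14 of 44 (31.8%) and 24 h regions in 5 (11.4%), with 6.82% to 15.9% on the mixed sides and 6.34 regions per gene. Cacna2d1, a calcium channel auxiliary subunit, stood at 81.8 and 83.1 at 6 h, Kcnd2 at 76.7 and 85.3, and Kcna2 at 78.9 and 75.8. Histone-modifying enzymes held 6 h regions in 16 of 53 genes (30.2%), 24 h regions in 8 (15.1%) and 11.3% to 18.9% on the mixed sides, and they had the most regions per gene of the lists, 8.34. Nsd3, Kat6b, Ash1l and Setd2 led them, with Nsd3 at 94.5 and 93.0. Inhibitory synapse genes held 6 h regions in 4 of 24 (16.7%) and no 24 h region, with up to 12.5% on the mixed sides and 3 regions per gene. Among them the region of Clcn4, a chloride and proton exchanger, stood at 91.7 and 94.3, and that of Gabra2, a GABA-A receptor subunit, at 82.6 and 79.0.

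Hypoxia, vascular and blood-brain barrier genes held 24 h regions in 4 of 31 (12.9%) and no 6 h region, against 7.65% and 12.3% over all genes. The mixed sides gave 3.23% to 9.68%, and the list had 3.77 regions per gene. Tjp1, which encodes the tight junction protein ZO-1, stood at 79.05 and 74.39 at 24 h and in 3 of the 4 earlier lists. Mfsd2a, a lipid transporter of the barrier, stood at 44.1 and 46.9, and at 20.3 to 65.8 in Sham replicate 2 and both Re-0 h lists. Vegfc, a vascular growth factor, stood at 27.35 and 27.59 with no peak there in other lists. Pdgfrb, the pericyte receptor, stood at 36.3 and 17.9, and at 6.51 to 37.6 in Sham replicate 2 and both Re-0 h lists. A 6 h peak lay 75 nt from the Pdgfrb region, at 24.1. Genes of p53 targets and cell death held 24 h regions in 4 of 31 (12.9%) and a 6 h region in 1, Bcl2, but the mixed sides reached 16.1%. Glutamate receptor genes held 8 of 41 (19.5%) and 7 of 41 (17.1%), against 7.65% and 12.3% over all genes and 4.88% to 14.6% on the mixed sides. They had 4.93 regions per gene, against 3.305 over all genes. Grm2 and Dlgap2 led them at 24 h and Grin3a and Grin2b at 6 h. The Grm2 24 h region directly adjoined a 6 h peak at 54.6 and was also in both Sham lists and Re-0 h replicate 1. Grm2 held a 6 h region as well. Glial genes had 3 of 25 (12%) on each side, which 1 or more mixed sides also reached. Gja1, the astrocytic connexin 43, stood at 77.06 and 77.75 at 24 h, and Cd44, a hyaluronan receptor of reactive astrocytes, at 64.25 and 65.13 with no peak there in the other 6 lists. Serpina3n, a reactive astrocyte gene, stood at 70.2 and 81.8 at 6 h and otherwise at 17.2 in Sham replicate 2.

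Axon guidance genes held 24 h regions in 5 of 60 (8.33%) and 6 h regions in 8 (13.3%), and Wnt pathway genes in 4 and 6 of 37, against 7.65% and 12.3% over all genes. The heat shock list had 2 and 1 of 21, with Hspa1b and Hspa1a, inducible Hsp70 genes of nearly the same sequence, which makes their assignment uncertain. Innate immune genes had 2 and 1 of 24, with Tnfrsf1a and Il1r1 at 24 h and Socs3 at 6 h, while the mixed sides reached 4. Ferroptosis and iron genes had 0 and 2 of 18, Acsl4 and Srxn1 at 6 h. Slc7a11, the cystine transporter, had 1 peak in each of the 8 lists, at 75.3 and 62.8 at 24 h and 40.2 and 59.7 at 6 h. Trp53 had 1 peak at the 6.93 percentile in Re-24 h replicate 2, 1 at 5.19 in Re-0 h replicate 1 and none in the other 6 lists, and Gpx4 had none in any list. Presynaptic genes had 2 and 3 of 28, autophagy genes 2 and 2 of 33, and neurotrophin genes 2 and 3 of 20, all within the range of the mixed sides.

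**Figure D5:**
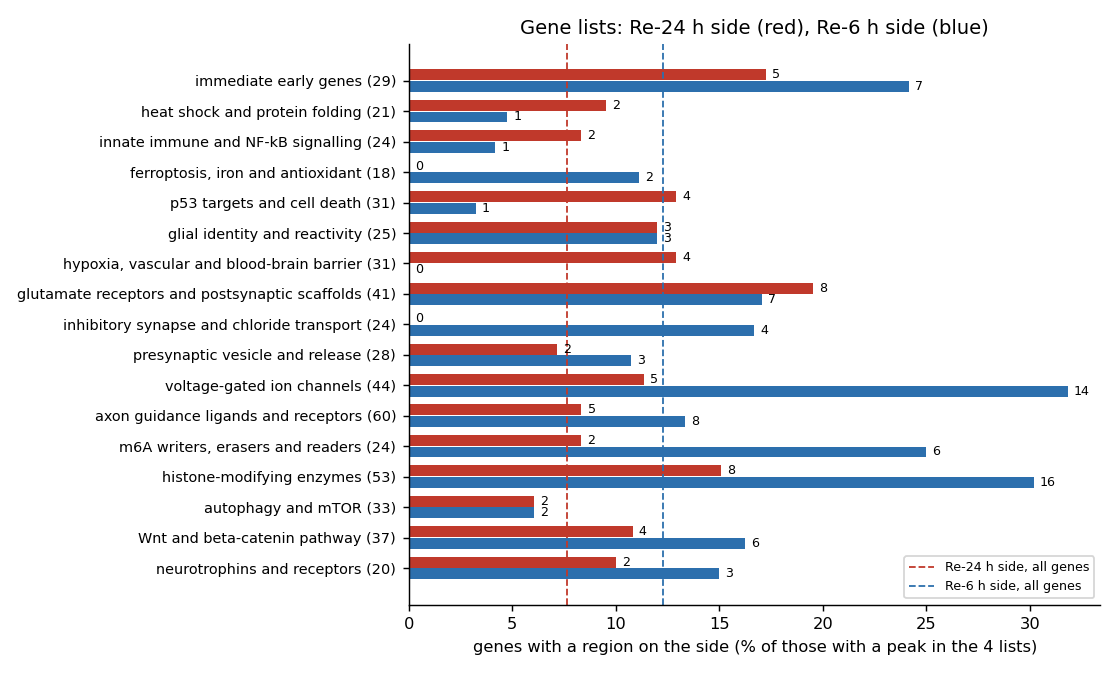
Percent of the genes of each list with a peak in the 4 lists (their number in brackets) that held a 24 h region (red) or a 6 h region (blue), with the number of genes at the bar ends and the shares over all genes as dashed lines (7.65% and 12.3%). Ion channel genes (31.8%) and histone-modifying enzymes (30.2%) have the longest blue bars.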

How the data were processed

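Immunoprecipitated MeRIP-seq libraries were used, 2 each of Re-24 h and Re-6 h, with those of Sham and Re-0 h as a further readout. Per the labels RNA was cut to about 200 nt (the study's methods give a shorter length). For these lists the authors used Trim Galore 0.6.7 for trimming and HISAT2 2.2.1 for alignment (GRCm39). Reads that mapped nowhere or to several places were dropped, and peaks came from exomePeak2 at a p cutoff of 0.05 and a log2 fold cutoff of 0.5. Whether replicates were pooled is not given in the sources used here. The deposited lists hold a span and a score of undefined scale, which served only to rank peaks within a list. A peak can be missing for low coverage as well as for low m6A.

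The work was done in Python 3.11.15 (numpy 2.4.6, scipy 1.17.1, pysam 0.24.0) on GENCODE M39 exons of GRCm39. Introns were removed from spans: among peaks across introns, 86.7% to 89.8% of a list then had a length that is a multiple of 25 nt, against 3.68% to 4.88% before. Joining was tested on simulated data. Regions were placed by the middle of the exonic part, coding sequence taking precedence over either UTR, and distances to the stop codon were measured on whichever transcript had the longest coding part. Counts were set beside the mixed divisions, and shares carry exact binomial intervals. Alternatives changed the peaks kept, the joining, the exons, the windows, the motif and the lists. Named genes were the 10 highest-ranking protein-coding genes per side, the 5 highest without an opposing peak in the gene, up to 4 per gene list and side, those with 3 or more regions, and Trp53, Slc7a11, Gpx4, Ythdf1, Ythdf2, Ythdf3 and Mettl3. The remaining 6 h genes of the m6A list were added to complete its count. Genes named with the hypothalamic, striatal, thalamic and cortical lists or as listed at one time alone were chosen after their values were seen. The members and all lists were chosen with earlier results of these data known. Genes withheld from this text are not reported here.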

Additional observations from a re-analysis of the deposited data

How the results depend on the processing

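Of 156 recomputed values, 102 were classed as the same, 53 as moved and 1, the ratio below, as reversed. The class of the same is wide and does not mean close. It took in 760 24 h regions against 1032 when no opposing peak was allowed within 100 nt. It also took in 2282 genes with a 6 h region against 1531, and a ratio of 1.11 against 1.39, without Re-24 h replicate 1. The order of 24 h and 6 h regions also turned without Re-24 h replicate 2 for the stop codon share (16.8% and 18.65%), the 3' UTR share (29.0% and 32.1%) and the RRACH density (16.3 and 17.7), and without Re-24 h replicate 1 for the RRACH density (16.3 and 17.35). The ratio of the division by time to the mixed divisions ran from 0.973 (without Re-24 h replicate 2) to 1.17 with 1 list left out. It was 1.53 in the fit with the replicate block, which keeps only the mixed division with 1 list of each replicate number on each side. Same-numbered lists shared 0.344 and 0.356 of their regions, crossed ones 0.342 and 0.342, and the Re-24 h replicates 0.352. Whether a replicate number stands for a batch was not tested. A side left with 1 list takes in all its unreplicated regions, by construction. With 1 list left out, 24 h regions thus numbered 1810 to 7619 in 1578 to 5049 genes and 6 h regions 2788 to 8735 in 2282 to 5616 genes. The 3' UTR shares (24 h, then 6 h) ran from 29.0% to 34.4% and 25.8% to 32.1%, the stop codon shares from 16.5% to 23.4% and 14.3% to 18.65%, the RRACH densities from 16.3 to 18.3 and 15.9 to 17.7 per kb, and the shares with a Re-0 h peak from 30.9% to 68.0% and 35.6% to 71.75%. Keeping the higher-scoring 50% of each list gave 529 regions in 488 genes at 24 h and 955 in 849 at 6 h, with 37.8% of the 24 h regions in the 3' UTR, stop codon shares of 26.6% and 17.4%, RRACH densities of 18.96 and 17.75 and a Re-0 h peak for 60.7% of the 24 h regions. Windows of 100 and 400 nt around the stop codon gave 12.5% and 35.1% at 24 h and 7.34% and 27.6% at 6 h, GGACT 1.54 and 1.38 sites per kb, and presence in both Re-0 h lists 19.7% and 23.95%. Of the named genes, 32 of 65 at 24 h and 79 of 89 at 6 h still held a region among the higher-scoring 50%, and 52 and 78 where no opposing peak was allowed within 100 nt. The unknown depth and 2 lists per time limit every absence stated here.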
